A study of Homo sapiens with 9 samples.

Results

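Thrombin, the protease that converts fibrinogen to fibrin, was used as bait for DNA of neutrophil extracellular traps (NETs), and the subject here is the small group of places it pulled down that lie in or beside protein-coding genes. Members were the autosomal peaks of the 4 thrombin pulldown lists that overlapped a protein-coding gene body of the RefSeq gene table (GRCh38) or lay within 100 kb of one, merged wherever they shared at least 1 base. This gave 104 regions from 309 peaks, out of 1507 autosomal and 1652 total merged pulldown regions. A further 1404 autosomal regions lay farther than 100 kb from such genes and are called far regions, and the 104 are called near regions. A near region touched a far peak in 1 case, so near and far regions add up to 1 more than the merged autosomal total.

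All libraries came from dHL60 cells, the differentiated form of HL-60, a single human promyelocytic leukaemia line that can be turned towards neutrophil-like cells. The cells of every group were treated with 500 nM phorbol myristate acetate (PMA) for 4 h, which makes such cells release NETs. For the Tb_pulldown group (4 libraries) biotinylated alpha thrombin was then added at 1 µM for 1 h, the NET layer was fixed with formaldehyde, and thrombin-bound DNA was captured on streptavidin beads. For the KAS group (1 library) the labels name no thrombin: 5 mM N3-kethoxal was given for 10 min to tag unpaired guanines, and the tagged single-stranded DNA was captured. The Tb_input group (4 libraries) was not analysed here. The peak lists hold no expression values, so markers of cell identity could not be checked, and the labels do not say that replicates were separate cultures. Differences among the 4 libraries may therefore be technical in origin.

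NETs are webs of decondensed DNA with histones and granule proteins that activated neutrophils release, and they are known to promote coagulation. DNA in them is partly unwound, and KAS-seq reports where bases are unpaired, which in living cells marks open transcription bubbles among other structures. Protein-coding genes are the usual reference points of the genome, whereas the blocks beside centromeres and chromosome ends hold few genes and much repeated sequence. The series title names the repeat (ATTCC)n as the DNA that thrombin binds.

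The sequence under the regions themselves was not analysed here. Promoters of the neighbouring genes could be read from RefSeq (GRCh38.p14), and 54 of the 64 genes within 100 kb of a region were matched. The 250 bases before the start are shown for 4 of them, 5′ to 3′ on the gene's strand (plus for all 4), with every ATTCC or GGAAT (the same letters on the other strand) in capitals. They were chosen, after their values were seen, because MAMDC2 (chr9:70043331-70043580) is the matched promoter closest to a region that at least 3 lists held, CWH43 (chr4:48986025-48986274) and DEFB115 (chr20:31257414-31257663) are the neighbours of the fullest locus and of a beta-defensin locus, and PRKCA (chr17:66302363-66302612) has a KAS peak at its promoter and a pulldown peak in its body.
MAMDC2: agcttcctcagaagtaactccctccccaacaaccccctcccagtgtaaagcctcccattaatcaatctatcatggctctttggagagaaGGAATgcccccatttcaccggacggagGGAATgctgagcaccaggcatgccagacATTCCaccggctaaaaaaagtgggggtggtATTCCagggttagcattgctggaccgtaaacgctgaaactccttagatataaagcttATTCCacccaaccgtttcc
CWH43: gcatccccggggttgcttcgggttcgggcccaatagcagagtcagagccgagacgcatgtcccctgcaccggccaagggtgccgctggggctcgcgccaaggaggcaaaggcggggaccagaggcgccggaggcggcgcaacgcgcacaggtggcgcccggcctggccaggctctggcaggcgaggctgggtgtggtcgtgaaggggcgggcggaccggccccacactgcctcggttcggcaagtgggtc
DEFB115: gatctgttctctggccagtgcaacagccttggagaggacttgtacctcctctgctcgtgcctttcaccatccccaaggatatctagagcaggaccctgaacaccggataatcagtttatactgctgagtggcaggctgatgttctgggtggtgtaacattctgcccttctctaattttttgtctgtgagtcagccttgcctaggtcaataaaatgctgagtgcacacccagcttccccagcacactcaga
PRKCA: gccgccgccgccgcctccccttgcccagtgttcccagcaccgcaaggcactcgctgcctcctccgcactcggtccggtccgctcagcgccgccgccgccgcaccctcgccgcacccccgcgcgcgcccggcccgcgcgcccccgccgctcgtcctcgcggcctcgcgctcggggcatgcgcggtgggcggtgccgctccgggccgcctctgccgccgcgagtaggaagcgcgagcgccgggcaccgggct
The MAMDC2 promoter held 5 matches and the other 3 held 0. Among the 54 promoters, 11 (20.4%) held ATTCC or GGAAT, against 28.3% of the 15101 promoters matched to autosomal protein-coding genes. Matches numbering 5 or more were found in 2 of those 15101 promoters (0.0132%), MAMDC2 being one of them. A tandem form, 2 copies of ATTCC or of GGAAT in a row, occurred in 0 of the 54 and in 8 of the 15101 (0.0530%). No promoter of this table overlapped a pulldown peak, and 2 of the 54 overlapped a KAS peak, PRKCA with a KAS fold enrichment of 4.97 and ZBTB46, a zinc finger repressor gene, with 6.21. Those 2 are 3.70% of the 54 promoters, against 173 (1.15%) of all 15101, and a count of 2 is too small for a comparison. The 54 belong to genes within 100 kb of a region, but a promoter itself can lie farther away. That of PRKCA lay 496 kb from the region in its gene. A match is only a run of letters, and MAMDC2's promoter lay 4.80 kb from the pulldown region beside it.

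Near regions were scarce for the space around genes. The zone within 100 kb of protein-coding genes made up 68.7% of the autosomal extent (1975 Mb) and held 5.27 near regions per 100 Mb, whereas the remaining 899 Mb held 156 far regions per 100 Mb. These extents include runs of unknown bases. In pulldown replicates 1 to 4, 73 of 814, 67 of 528, 83 of 677 and 86 of 770 autosomal peaks were near, or 8.97%, 12.7%, 12.3% and 11.2%, a mean of 11.3% ± 1.66 (SD, n = 4). The KAS list differed in kind, with 79.9% of its 33777 autosomal peaks near. The number of reads behind each list is unknown, because the lists give no library totals.

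Although few, the near regions recurred between libraries. All 4 lists held 39 of the 104, and 15, 20 and 30 regions were seen in 3, 2 and 1 of them. Thus 54 (51.9%, exact Clopper-Pearson 95% interval 41.9 to 61.8) were held by at least 3 lists, against 15.7% of far regions and 18.2% of all autosomal regions. Replicates 3 and 4 shared 15 near regions that neither other list held, and no near region was held by replicates 1 and 2 alone. These patterns were not counted among far regions, so they are not read as a trait of near regions. Replicates 1 to 4 held 57, 50, 80 and 84 of the 104 regions, so replicates 3 and 4 held the most and replicate 2 the fewest.

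The 104 regions were not spread evenly. When regions at most 100 kb apart were joined, they formed 32 loci on 15 of 22 autosomes, and 4 loci of 12 or more regions held 62 of the 104 (59.6%). These lay beside CWH43 on chromosome 4 (20 regions), TPTE on chromosome 21 (17), DEFB115 on chromosome 20 (13) and LOC124905368 on chromosome 2 (12). The gene names serve only to place the loci, since 17 of the 104 near regions (16.3%) touched any annotated gene, coding or not. Distance to centromeres was not computed. Another 8 loci had 2 to 4 regions and held 22 regions, and 20 loci had 1. At least 3 lists held 44 of the 62 regions in the 4 fullest loci (71.0%) and 10 of the 42 outside them (23.8%). The regions of a locus are neighbours and not independent observations.

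**Figure D1:**
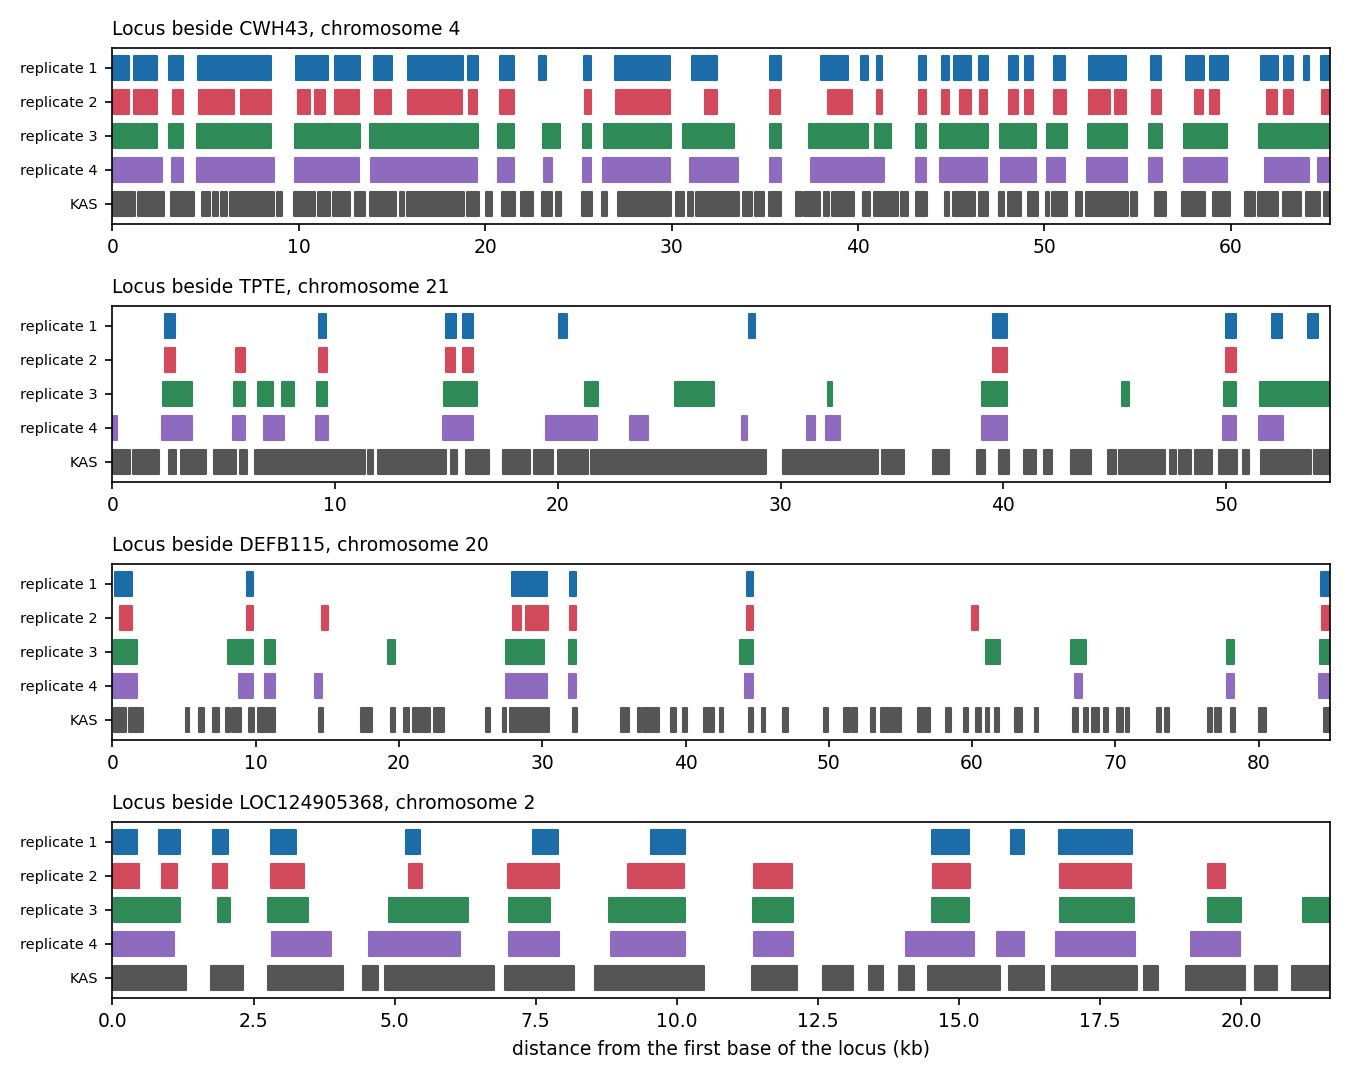
Peaks of pulldown replicates 1 to 4 (coloured bars) and of the KAS library (grey bars) along the 4 fullest loci, with the distance from the first base of each locus in kb on the horizontal axis and 1 row per library. The CWH43 locus is filled with blocks common to all 4 replicates, while many blocks of the TPTE locus appear in replicates 3 or 4 alone.

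The CWH43 locus was the most reproducible. CWH43 (gene 80157, chr4:48986275-49062079) encodes a protein that remodels the lipid of GPI anchors. The regions began 29.3 kb beyond its 3′ end, at 49091350, and ran for 65.3 kb. Of the 20 regions 19 were held by 4 lists, the exception being chr4:49114227-49115350, which replicate 2 lacked. Their widths ran from 457 to 5797 bases, and they covered 70.4% of the span. The authors' fold enrichment of a peak, which sets its signal against the background estimated by the peak caller, was modest: the median over the locus was 3.10, 2.62, 3.11 and 2.76 in replicates 1 to 4.

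Within this locus the highest mean fold was at chr4:49152865-49156654, with 4.40, 3.76, 4.14 and 3.28 in replicates 1 to 4, a mean of 3.90 ± 0.488 (SD, n = 4). At chr4:49095860-49099996 the folds were 3.06, 2.98, 4.39 and 3.83, with replicates 3 and 4 above replicates 1 and 2. At chr4:49135745-49138294 the order was turned round, with 4.21, 3.15, 2.61 and 2.03. No library was therefore always the strongest. Summits of the strongest peak lay up to 2008, 57 and 980 bases apart between lists in these regions, in the order given. The folds of a region therefore need not be of the same site. At chr4:49091350-49094008, the region closest to CWH43, replicate 1 was the lowest at 1.86, against 2.46, 3.88 and 3.30.

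The TPTE locus was less uniform. TPTE (gene 7179, chr21:10521583-10605716) encodes a transmembrane phosphatase known from testis. Its 17 regions lay 47.2 to 98.7 kb beyond the 3′ end of the gene, and 4 lists held 5 of them, while 3, 2 and 7 were seen in 3, 2 and 1 lists. Replicates 1 and 2 held 8 and 6 of them, and replicates 3 and 4 held 12 and 14. The strongest region in 4 lists, chr21:10662095-10662629, had folds of 2.72, 3.88, 3.81 and 5.00 in replicates 1 to 4, a mean of 3.85 ± 0.929 (SD, n = 4). Replicate 1 was lowest there and replicate 4 highest.

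Beta-defensin genes, which encode small antimicrobial peptides of epithelia, were the neighbours of 2 loci. DEFB115 (gene 245929, chr20:31257664-31259632) had 13 regions before its 5′ end, 15.7 to 98.9 kb away, of which 6 were held by 4 lists. The strongest of these, chr20:31157044-31158725, had folds of 3.72, 2.62, 4.87 and 4.38 in replicates 1 to 4, a mean of 3.90 ± 0.974 (SD, n = 4). At chr20:31188880-31189426 replicate 1 was highest and replicate 2 lowest, with 5.43, 2.05, 3.49 and 4.09. DEFB125 lies near the first bases of the same chromosome. Its 4 regions between 59940 and 66688 came from replicates 1, 3 and 4, and replicate 2 held none of them. At chr20:64732-65613 the folds were 4.19, 3.35 and 3.95 in replicates 1, 3 and 4. In all, 5 of 39 DEFB genes lay within 100 kb of a region, which is 7.81% of the 64 genes so placed, while DEFB genes are 0.204% of autosomal protein-coding genes. The 5 are neighbours at these 2 loci (DEFB125, DEFB126 and DEFB127, and DEFB115 and DEFB116) and are not independent.

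The locus on chromosome 2 lay beyond the 3′ end of LOC124905368, an uncharacterised gene that the table gives as protein-coding. Its 12 regions spanned chr2:90380729-90402297, and 7 were held by 4 lists and 3 by 3. The strongest in 4 lists, chr2:90387735-90388647, had folds of 2.49, 3.16, 4.88 and 4.41 in replicates 1 to 4. Replicates 3 and 4 were above replicates 1 and 2 there, whereas at chr2:90389527-90390881 replicate 1 was highest, with 4.58, 2.87, 3.92 and 2.86. A smaller locus beside LOC102723475 on chromosome 21 held the highest mean fold of all near regions in 4 lists, at chr21:7925832-7928128, with 3.56, 4.06, 4.22 and 4.89, a mean of 4.18 ± 0.549 (SD, n = 4). Ranking regions by how many lists held them, and by mean fold among equals, put 25 regions first, of which 13 lay in the CWH43 locus, 5 in the LOC124905368 locus, 4 in the DEFB115 locus, 2 in the TPTE locus and 1 in the LOC102723475 locus.

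Among the 39 regions in 4 lists, the folds of the libraries overlapped widely. Their median was 3.06, 2.51, 3.18 and 2.86 in replicates 1 to 4, and replicate 2 was the lowest library in 20 of the 39 and the highest in 0. In the 137 far regions held by 4 lists replicate 2 was the lowest in 62 and the highest in 18. The SD between libraries was a median of 17.9% of the mean fold (3.19% to 37.3%). The authors' pileup signal at the summit, a read height that is not scaled between libraries, varied less: its SD was a median of 6.04% of the mean, and it stayed under 10% in 33 of 39 regions. The same held for far regions in 4 lists, with medians of 6.86% for pileup and 17.6% for fold. At chr4:49152865-49156654, for example, the pileups were 156, 159, 157 and 161 in replicates 1 to 4, while the folds ran from 3.28 to 4.40. That region joins 10 peaks of the 4 lists. Fold and pileup are each the highest among a list's peaks in a region, so they need not belong to the same peak. Pileup also reached at most 200, which can hold down its spread in tall regions.

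**Figure D2:**
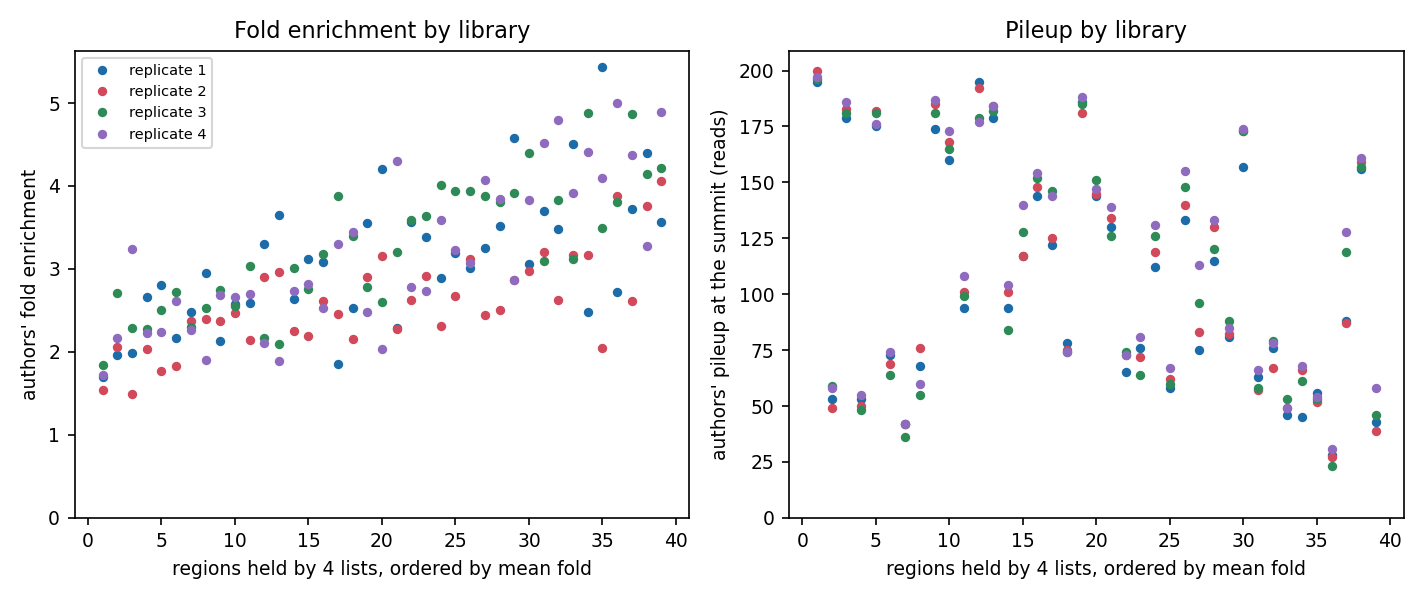
Each of the 39 near regions held by 4 lists, ordered by mean fold on the horizontal axis, with the authors' fold enrichment (left) and pileup at the summit in reads (right) of replicates 1 to 4 as coloured points. Points of 1 region lie closer together for pileup, with a median SD of 6.04% of the mean, than for fold, with 17.9%. Each point is the highest value among the region's peaks in that library, taken separately for fold and pileup.

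Regions within gene bodies were few and mostly seen once or in 2 lists. There were 9, each in a different gene locus, and 1 of them (11.1%) was held by at least 3 lists, against 53 of the 95 regions beside genes (55.8%) and 18.2% of all autosomal regions. The exact 95% interval of 1 in 9 runs from 0.281% to 48.2%, so it cannot be told from the share over all regions, and most regions beside genes belong to the 4 fullest loci. That region, chr2:109199100-109199907, lay within SH3RF3, a scaffold gene of JNK signalling, 69.9 kb from its nearer end, and within the 1123 kb span that the table gives RANBP2, a nucleoporin gene. Its folds were 2.81, 1.77, 2.50 and 2.24 in replicates 1 to 4. Its pileups were among the highest, at 175, 182, 181 and 176. Exons and introns could not be told apart, because the gene table gives gene bodies only.

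Another 3 gene bodies held a region in replicates 3 and 4 and in neither other list. RTEL1, a helicase gene of telomere maintenance, held chr20:63693201-63693852, 2.40 kb before its 3′ end, with folds of 9.74 and 7.36, the highest mean (8.55) of any near region in 2 lists. Replicates 1 and 2 had no peak there. EXD3, an exonuclease-domain gene, held chr9:137355487-137355719, with 3.73 and 7.96. DCC, the netrin receptor gene, held chr18:52792453-52792963, with 4.19 and 2.99. Peaks of both libraries were thus present at the same bases, but their order of strength differed.

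The other 5 regions in genes were each in 1 list. PRKCA, a protein kinase C gene whose product phorbol esters such as PMA activate, held chr17:66798727-66799006 in replicate 3 with a fold of 2.37, at 97.7% of the way along the gene and 496 kb from its promoter. FOXN3, a forkhead transcription factor gene, held chr14:89361186-89361444 in replicate 4 with 5.67. PCSK5, a proprotein convertase gene, held chr9:76174876-76175403 in replicate 4 with 3.99. ZFPM2, a GATA cofactor gene, had a peak of fold 5.02 in replicate 3. NALF1, an ion channel accessory gene, was clipped by chr13:107163355-107163624 in replicate 2 with 4.89, across its 3′ end. The pileup heights of the FOXN3, PCSK5, ZFPM2 and NALF1 peaks were between 9 and 19 reads, far below those of the SH3RF3 region, so these calls rest on few reads.

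Outside the genes, 30 regions lay before the 5′ end of their nearest gene and 59 beyond the 3′ end, with no strand given for 6. The CWH43 and TPTE loci account for 37 of the 59, and the 12 regions of the LOC124905368 locus are also among them. Sides were not counted for far regions. Only 4 regions lay within 10 kb of a gene without touching it, 40 lay from 10 to 50 kb and 51 from 50 to 100 kb. Among regions in at least 3 lists and beside genes without a LOC symbol, the nearest was chr9:70037970-70038528, 5.05 kb before MAMDC2, which encodes a MAM-domain matrix protein, with folds of 2.54, 3.12 and 2.69 in replicates 1, 3 and 4. On chromosome 2, chr2:32915973-32916721, 30.2 kb before LTBP1, a gene of latent TGF-beta binding, reached 2.40, 2.35 and 2.07 (fold) in replicates 1, 3 and 4, and its pileup was 200 in each. That is the top value of each pulldown list, in far regions too, so equal values of 200 are not read as equal heights. The zinc finger gene ZNF716 had 3 regions, of which chr7:57491403-57492179 reached folds of 3.49, 3.57 and 3.19 in replicates 1, 3 and 4. ZNF92, of the same family, had 1 region, with 3.46 in replicate 3 and 4.50 in replicate 4.

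At the limit itself the choice of 100 kb cut through clusters. Just inside were chr20:31157044-31158725, 98.9 kb from DEFB115, and chr1:224014329-224015270, 98.8 kb from the F-box gene FBXO28, where replicate 3 gave 3.28 and replicate 4 gave 4.09. Just outside were chr1:224012617-224013935, 100.2 kb from FBXO28, with folds of 3.81, 3.53, 4.05 and 4.48 in replicates 1 to 4, and chr21:10705907-10707757, 100.2 kb from TPTE, with 3.20 and 3.10 in replicates 1 and 4. The latter shares bases with the near region chr21:10704408-10707606 and is the 1 case of contact named above. It stands apart only because peaks were selected before merging. Within 1 Mb of the CWH43 locus lay another 23 far regions, and 20, 8 and 15 lay as close to the TPTE, DEFB115 and LOC124905368 loci. Of these, 9, 2, 4 and 7 beside the CWH43, TPTE, DEFB115 and LOC124905368 loci were held by at least 3 lists. Pulldown regions thus occurred past the limit around each of these loci, but whether they adjoin them without wide gaps was not computed.

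The 64 protein-coding genes within 100 kb of a region are 0.335% of the 19126 autosomal ones, and the 22 genes within 100 kb of a region in at least 3 lists are 0.115%. No member of 5 lists was among them: granule and NET proteins of neutrophils (0 of 27 autosomal genes), clotting factors with thrombin's receptors and regulators (0 of 25), early-response and inflammatory genes (0 of 25), housekeeping genes (0 of 18) and histones (0 of 74). Zinc finger genes had 3 of 529 (0.567%), ZNF716, ZNF92 and ZFPM2. Olfactory receptor genes had 2 of 391 (0.512%), OR4F16 and OR11H12. Families of segmental duplications had 2 of 163 (1.23%), TPTE and FRG2B. Against a background of 0.335%, zeros in lists this short say little. Genes with a LOC symbol, mostly uncharacterised models, made up 14 of the 64 (21.9%) and 3.29% of all autosomal protein-coding genes.

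The KAS list, of captured single-stranded DNA, overlapped most near regions. A KAS peak shared at least 1 base with 93 of the 104 (89.4%, exact Clopper-Pearson 95% interval 81.9 to 94.6), against 356 of 1404 far regions (25.4%, 23.1 to 27.7) and 29.7% of all autosomal regions. Overlap was complete for the 39 regions in 4 lists and was 14 of 15 for 3 lists, 18 of 20 for 2 and 22 of 30 for 1. In far regions it was 78.1% for 4 lists, 36.9% for 3, 24.9% for 2 and 16.5% for 1. Regions in more lists were also wider. Median width ran from 353.5 bases in 1 list to 1355 in 4 for near regions, and from 328.5 to 1285 for far regions. Merging can itself widen a region held by more lists, because it joins all their overlapping peaks. The number of lists and width were not separated. Intervals cover counting error only, and neighbouring regions are not independent.

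The median width was 752 bases for near regions and 397 for far regions, and overlap rose with width in both. Whether width accounts for the difference in overlap between near and far regions was not tested, and the classes used here are broad. Within each class of width the near share was the higher. For regions of up to 300 bases it was 7 of 13 (53.8%) against 9.91%, for over 300 and up to 500 bases 12 of 15 (80.0%) against 19.1%, for over 500 and up to 1000 bases 38 of 40 (95.0%) against 38.4%, and above 1000 bases 36 of 36 against 83.8%. KAS peaks covered 0.403% of bases in the zone near genes and 0.282% of those outside, so the KAS list itself was denser near genes. By loci, 22 of 32 near loci (68.8%) and 69 of 191 far loci (36.1%) held a region with a KAS peak. Among loci of a single region it was 11 of 20 against 2 of 55. Near and far regions were joined into loci separately. A near locus of a single region can therefore have far regions within 100 kb, and the reverse, so these loci need not be isolated.

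**Figure D3:**
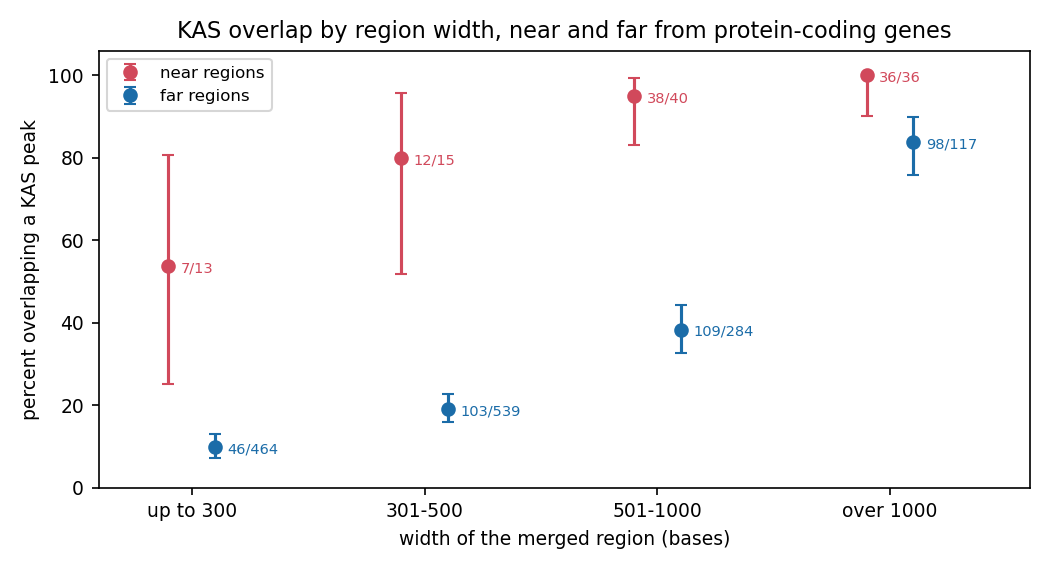
Percent of merged regions that overlap a KAS peak (vertical axis) in 4 classes of region width in bases (horizontal axis), for near regions (red) and far regions (blue), with exact 95% intervals as bars and counts beside the points. The near share lies above the far share in each class, from 53.8% against 9.91% in the narrowest to 100% against 83.8% in the widest.

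KAS peaks were themselves packed into the fullest loci. In the CWH43 locus they covered 83.4% of the bases of pulldown regions and 38.0% of the bases between them. The contrast was similar in the LOC124905368 locus, at 95.4% and 49.8%, and in the DEFB115 locus, at 63.6% and 25.6%. It was small in the TPTE locus, at 85.0% and 73.1%. All 62 regions of these 4 loci overlapped a KAS peak, and 31 of the 42 elsewhere did (73.8%). Of 26982 KAS peaks near genes, 132 (0.489%) overlapped a near region. They were wider than the others, with a median of 667 against 246 bases, and had a similar median fold, 5.51 against 5.41. Selection by overlap favours wide peaks, so the width difference is not read as a trait of these places.

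Among the regions in gene bodies, 7 of 9 overlapped a KAS peak (77.8%, exact 95% interval 40.0 to 97.2). The share was 90.5% for regions beside genes, which lies within that interval, and 29.7% for all autosomal regions. KAS folds were 4.66 at the SH3RF3 region, 4.90 at RTEL1, 5.51 at EXD3, 4.43 at DCC, 10.9 at FOXN3, 4.48 at PCSK5 and 7.78 at PRKCA, and the NALF1 and ZFPM2 peaks had no KAS peak. In 1 list only were 30 of all 104 near regions and 910 of all 1404 far regions. Of the 11 near regions without a KAS peak, 8 were in 1 list. They included the near region of highest fold, chr1:144140082-144140490 beside LOC105371206, at 9.76 in replicate 2 alone, and chr2:120391458-120391660, 39.7 kb from the inhibin subunit gene INHBB, at 7.52 in replicate 4 alone. A pair beside LOC124905450 at the start of chromosome 18 recurred without any KAS peak: chr18:108168-108958 showed weak folds, 1.93, 2.09 and 1.49, in replicates 1, 3 and 4. Another, chr10:133688305-133688755 beside FRG2B, a gene of a duplicated subtelomeric family, had 1.62 and 2.36 in replicates 1 and 3.

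Peaks were also compared within each library, so that near and far peaks shared depth and handling. In replicates 1 to 4, 93.2%, 95.5%, 95.2% and 96.5% of near peaks overlapped a KAS peak, against 36.7%, 50.3%, 41.6% and 39.9% of far peaks. The near values did not overlap the far values, and the mean difference was 53.0 ± 5.36 percentage points (SD, n = 4 lists; exact two-sided paired permutation test, p = 0.13, adjusted p = 0.13). That is the smallest p 4 lists allow, so no comparison of this kind could pass 0.05. The difference was 27.1 points when far peaks were restricted to those within 1 Mb of a protein-coding gene and 32.7 ± 19.2 without the 4 fullest loci. At a limit of 10 kb it was 11.5 ± 26.8 (exact permutation p = 0.5), with 13 regions in or near genes.

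Near peaks were likewise more often shared between libraries, where sharing means an overlap of at least 1 base. They were also wider, as given below, and sharing was not compared within classes of width. In replicates 1 to 4, 94.5%, 94.0%, 89.2% and 84.9% of near peaks overlapped a peak of another pulldown list, against 52.6%, 74.4%, 69.4% and 62.1% of far peaks. The mean difference was 26.0 ± 10.7 points (SD, n = 4; exact permutation adjusted p = 0.13), largest in replicate 1. Against far peaks within 1 Mb of a protein-coding gene it was 15.0 ± 7.21 points. Without the 4 fullest loci it was 8.69 ± 18.9 points (exact permutation p = 0.5), and at 10 kb it was 4.13 ± 36.1.

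Near peaks were wider, with a lower fold and a taller pileup. Their median width was 455, 484, 763 and 665 bases in replicates 1 to 4, against 338, 392, 461 and 472 for far peaks, a mean difference of 176 ± 94.6 bases (exact permutation adjusted p = 0.13). Their median fold was 2.81, 2.47, 3.59 and 3.29, against 3.42, 2.89, 3.84 and 3.77, lower in 4 of 4 lists by a mean difference of -0.440 ± 0.148 (exact permutation adjusted p = 0.13). The median pileup of near peaks was higher, at 78, 82, 58 and 55.5 reads against 43, 58, 30.5 and 32. The authors' median −log10 q was also higher in each list, at 11.3, 9.18, 12.4 and 10.1 against 7.91, 6.63, 7.15 and 6.84. Lower fold thus came with taller pileups and higher −log10 q. The fold difference shrank to -0.0247 ± 0.0835 against far peaks within 1 Mb (exact permutation p = 0.75) and turned to 0.215 ± 1.2 without the 4 fullest loci (exact permutation p = 1). The width difference was 118 ± 83.2 bases against far peaks within 1 Mb, 85.1 ± 75.0 without the 4 fullest loci and 9 ± 94.8 at 10 kb.

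**Figure D4:**
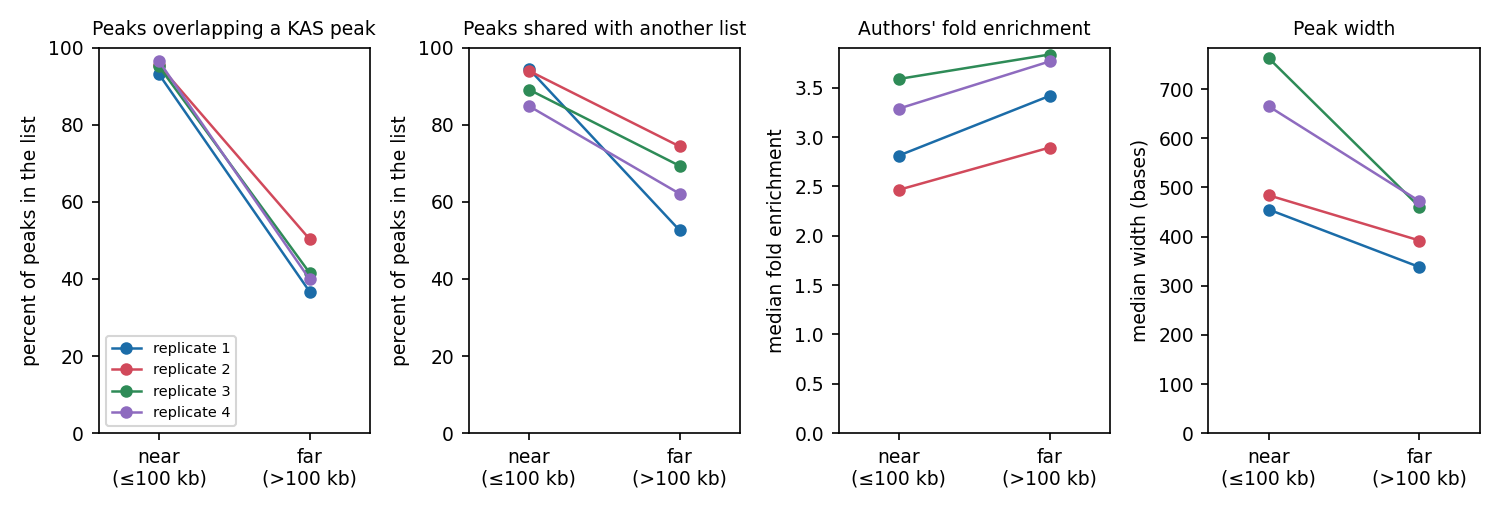
The 4 measures of near peaks (at most 100 kb from a protein-coding gene) and far peaks in each pulldown library, with 1 line per replicate: percent overlapping a KAS peak, percent shared with another list, median fold enrichment and median width in bases. Lines fall from near to far for KAS overlap, sharing and width and rise for fold in all 4 replicates.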

How the data were processed

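The files are peak lists, 1 per library, of 4 thrombin pulldowns and 1 KAS library, with positions counted from 1. MACS2 2.2.7.1 with bedtools 2.30.0, BWA, Picard 2.27.4 and SAMtools 1.6 appear in the submitters' processing notes beside the build GRCh38.p13. No source used here gives their roles, their settings or any use of inputs as controls. The authors' pileup signal is a read height that is not scaled between libraries and reaches at most 200. The authors' fold enrichment is a ratio over the caller's background, and no test here used the −log10 values (p and q) that the authors also deposited. A region took, in each list, the highest fold and, separately, the highest pileup among its peaks.

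Genes and promoters came from RefSeq tables of GRCh38.p14, a later patch of the same build, whose chromosome positions are unchanged. Distances, merging and overlaps (at least 1 base) were computed in Python 3.11.15 (SciPy 1.17.1, pandas 2.3.3, NumPy 2.4.6). Checked separately, bedtools 2.31.1 gave the same 104 regions, 93 of them in KAS peaks. On simulated lists 200 of 200 planted regions held by at least 3 lists were recovered. Near and far peaks were compared over the 4 lists by exact paired permutation tests, adjusted by Benjamini-Hochberg over 4 measures at 0.05, and shares carry exact intervals. Named regions were those in at least 3 lists (25 at most, ranked on lists held, ties on mean fold), those in gene bodies, the 5 of highest fold in 2 lists and in 1, neighbours of listed genes, and those at the distance limit; others were named after their values were seen. Members and gene lists were chosen with earlier results of these data known. Read depth is unknown.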

Additional observations from a re-analysis of the deposited data

Results flagged for a closer look

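Of 33 sets of 4 library values (8 measures of the near peaks and the folds of the 25 top regions), 1 held a library far from the other 3 by Dixon's test at its 95% critical value, and chance gives about 1.65. At chr4:49112012-49112901 in the CWH43 locus, replicate 3 had a fold of 3.94, against 3.01, 3.12 and 3.07 in replicates 1, 2 and 4, while the pileups there were 133, 140, 148 and 155 in replicates 1 to 4.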

How the results depend on the processing

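The number of near regions in at least 3 lists (54) was 24 at 50 kb, 3 at 10 kb, 14 with the 50% of peaks of higher fold, 34 without the CWH43 locus and 10 without the 4 fullest loci. The KAS overlap of near regions (89.4%) was 61.5% at 10 kb, 62.5% with the 50% of KAS peaks of higher fold, 72.1% by centre base and 73.8% without the 4 fullest loci. The percent of peaks near genes (11.3%) was 5.09% at 50 kb, 0.857% at 10 kb, 9.12% without LOC genes, 8.37% with the 50% of peaks of higher fold, 7.53% without the CWH43 locus and 3.04% without the 4 fullest loci. The 22 genes near a region in at least 3 lists became 14 at 50 kb, 4 at 10 kb, 42 at 2 lists or more, 8 at 4 lists and 8 with the 50% of peaks of higher fold. The narrower distances and the sets without loci leave fewer regions by construction. The lower fold of near peaks turned to 0.215 without the 4 fullest loci, and the cause was not tested.

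With each replicate left out in turn, and at least 2 of the remaining 3 lists required, 57 to 73 regions and 22 to 42 genes were counted; the gene count was 41 without replicate 1 and 42 without replicate 2. KAS overlap was then 89.7% to 92.0%, and the near minus far differences were 51.7 to 55.5 points for KAS overlap, 24.6 to 31.0 points for sharing, 134 to 204 bases for width and -0.503 to -0.385 for fold. The mean differences in KAS overlap, sharing and width kept their sign in the 14, 13 and 11 alternatives run, but at 10 kb (11.5 ± 26.8, 4.13 ± 36.1 and 9 ± 94.8) and, for sharing, without the 4 fullest loci (8.69 ± 18.9) they were smaller than their SD over lists. Settings that drop loci or RANBP2, or restrict far peaks to 1 Mb, were chosen after seeing the data. No paired analysis was possible because pulldowns share replicate numbers with the inputs alone, and no input values were used here; this concerns pairing across groups, and near and far peaks were paired within each list. A single KAS library was made, so its side of the overlap has no replicate.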
